A study of Mus musculus with 12 samples.

Results

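The tumour suppressor gene Trp53 and 6 genes that feed back on its product, Mdm2, Mdm4, Ppm1d, Rchy1, Zmat3 and Trp53inp1, were followed by RNA sequencing of mouse forelimbs and bone marrow cultures in which Impdh2 had been deleted. The 7 genes were chosen by name from 51327 gene identifiers present in both the forelimb and the culture data. All 7 were found, and all 7 passed the filter on low counts in both. The study has 12 libraries in 6 groups of 2. Forelimbs were taken at embryonic day E12.5 from wild-type embryos (WT) and from embryos with Impdh2 deleted in limb mesenchymal progenitors (Prx-cKO). Bone marrow cells came from WT mice and from mice lacking Impdh2 in the myeloid lineage (LysM-cKO). They were first grown for 3 days in medium with L929 supernatant, a source of the macrophage growth factor M-CSF (equivalent to 20 ng/ml). The protocol then describes stimulation with the osteoclast-inducing cytokine RANKL at 40 ng/ml. Culture libraries are titled R40D3 or R0D3, and these titles are used as names only, since the labels give no RANKL dose for each library. Strain, sex and the age of the marrow donors are not given in the sources used here, nor is pooling of embryos or mice. The forelimb replicates of each genotype differ in sex-linked counts and so hold different embryos. For the cultures nothing says that replicates came from separate animals, so p-values there measure a spread between libraries that may be technical.

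Impdh2 encodes IMP dehydrogenase 2, an enzyme of guanine nucleotide synthesis. The p53 protein is a transcription factor that answers DNA damage, nucleotide shortage and disturbed ribosome assembly, mostly through control of the protein's stability rather than of its RNA. Mdm2 and Rchy1 (Pirh2) are ubiquitin ligases that mark p53 for degradation. Mdm4 is a relative of Mdm2 that blocks the transactivation domain of p53, and Ppm1d (Wip1) is a phosphatase that removes activating phosphates from p53 and its kinases. Zmat3 (Wig1) is a zinc-finger protein that binds RNA, including the p53 transcript, and Trp53inp1 is a stress-induced cofactor that promotes p53 phosphorylation. Apart from Mdm4, the regulators are known transcriptional targets of p53, which closes the loop.

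The deleted gene and the defining markers were checked against the labels. Impdh2 read 260 and 272 CPM (read counts normalised to library size, with TMM factors) in forelimb WT and 170 and 199 CPM in Prx-cKO. In the cultures it lay between 22.3 and 28.2 CPM in WT and between 7.03 and 8.38 CPM in LysM-cKO. All 11 limb mesenchyme markers were detected in the forelimbs. The summed level of 11 osteoclast markers was 13272 to 38999 CPM in R40D3 and 325 to 471 CPM in R0D3, where Calcr, a defining marker, was at 0. Forelimb WT replicate 1 and Prx-cKO replicate 2 carried female-type Xist counts and the other forelimb pair male-type counts. The members had 238 to 14695 counts per library, from totals of 28892215 to 69466572 in the forelimb and 16009146 to 19221865 in the cultures.

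All 7 members are protein-coding genes on GRCm38 in GENCODE M21. Trp53 (ENSMUSG00000059552) lies at chr11:69580359-69591873 on the plus strand, Mdm2 (ENSMUSG00000020184) at chr10:117688875-117710758 on the minus strand and Mdm4 (ENSMUSG00000054387) at chr1:132959484-133030561 on the minus strand. Ppm1d (ENSMUSG00000020525) lies at chr11:85311244-85347066 on the plus strand and Rchy1 (ENSMUSG00000029397) at chr5:91948904-91963068 on the minus strand. Zmat3 (ENSMUSG00000027663) lies at chr3:32334792-32366014 on the minus strand and Trp53inp1 (ENSMUSG00000028211) at chr4:11156431-11174379 on the plus strand. Overlaps and near-identical copies limit the counting of some of them. The exons of Rchy1 share 680 bases, 18.0% of its exonic length, with Thap6 on the opposite strand, and whether the counting used strand is not given in the sources used here. The processed pseudogene Mdm4-ps matches an Mdm4 transcript at 94.1% identity over 4184 bases, and it had at most 59 counts in a forelimb library and 0 in every culture library. Trp53-ps matches Trp53 at 94.957% identity over 1170 bases and had at most 10 counts in a culture library and 0 in the forelimbs.

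The p53 protein acts on its target genes through DNA. The stretch before the transcription start was therefore searched on both strands for the p53 half-site, the 10-base unit of its response element. RefSeq promoters (GRCm38.p6, 250 bases before to 50 bases after a start) were matched for 5 of the 7 members, in 7 windows. The members Zmat3 and Trp53inp1 were not matched. A half-site was found in 4 of the 7 windows, those of Trp53, Mdm2, Ppm1d and 1 of 2 Rchy1 starts, and in neither Mdm4 window. Among 32851 promoter windows of the same length, 8.36% held one. Shown are the 250 bases before the start of the 3 members whose match lies before the annotated gene, because in these genes the half-site sits in the promoter of p53 itself or of a gene that restrains it. Capitals mark the half-site, which begins 75, 186 and 132 bases before the start of Trp53, Mdm2 and Ppm1d. The windows are chr11:69580109-69580358 on the plus strand, chr10:117710759-117711008 on the minus strand and chr11:85311004-85311253 on the plus strand. The sequences are written 5′ to 3′ along the gene's own strand.
Trp53 promoter: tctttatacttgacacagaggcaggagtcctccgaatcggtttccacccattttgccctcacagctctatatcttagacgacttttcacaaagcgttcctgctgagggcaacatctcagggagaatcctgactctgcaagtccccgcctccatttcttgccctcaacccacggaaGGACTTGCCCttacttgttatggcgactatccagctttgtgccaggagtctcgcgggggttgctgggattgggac
Mdm2 promoter: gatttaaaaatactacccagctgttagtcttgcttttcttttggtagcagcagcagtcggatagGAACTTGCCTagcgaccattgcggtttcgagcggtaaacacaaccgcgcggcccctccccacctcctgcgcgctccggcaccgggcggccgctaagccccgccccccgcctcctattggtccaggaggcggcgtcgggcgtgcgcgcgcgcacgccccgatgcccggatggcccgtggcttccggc
Ppm1d promoter: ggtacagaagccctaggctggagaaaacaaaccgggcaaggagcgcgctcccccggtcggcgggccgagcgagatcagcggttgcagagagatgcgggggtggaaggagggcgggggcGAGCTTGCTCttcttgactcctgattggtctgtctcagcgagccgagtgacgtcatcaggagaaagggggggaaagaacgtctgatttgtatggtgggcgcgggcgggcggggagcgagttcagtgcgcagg
A match in letters is a description and not evidence of binding. The known p53-responsive promoter of Mdm2 lies in the first intron of the gene, outside this window.

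In the forelimb, Zmat3 was the member with the largest difference between genotypes, at 2.20 times its WT level in Prx-cKO. Trp53 RNA was 34.6% higher in Prx-cKO, with little spread within either genotype. The ligase and phosphatase genes Mdm2, Ppm1d and Rchy1 had overlapping groups. Mdm4 and Trp53inp1 were lower in both Prx-cKO libraries than in either WT library, by 12.7% and 10.0% in the mean. No member passed an adjusted p under 0.05 in the edgeR quasi-likelihood fit over 19987 genes, where 0 genes (0%) passed in all. At an unadjusted p under 0.05, 2 of the 7 members were higher and 0 were lower, against 5.87% and 4.61% of all genes. The groups did not overlap for 2 higher and 2 lower members, whereas 22.2% of all genes were higher and 21% lower without overlap. DESeq2 on the same counts called 390 of the 19987 genes, of which 1 was a member.

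Zmat3 read 34.2 and 36.5 CPM in the forelimb WT libraries and 70.1 and 85.3 CPM in the Prx-cKO libraries. Both Prx-cKO values were well above both WT values, and the gap between the groups was larger than the spread within either. The log2 fold change was 1.14 (SE 0.17, 95% interval 0.70 to 1.58, n = 2 per genotype), with an edgeR unadjusted p of 0.00103 and an adjusted p of 0.332. DESeq2 gave an adjusted p of 0.000177 for a fold change of similar size. Without forelimb WT replicate 1 the edgeR adjusted p was 0.0341, and that fit called 603 genes. Leaving out another single forelimb library gave edgeR adjusted p of 0.0696 to 1.00. Leaving out any 1 of the 4 libraries kept the log2 fold change between 0.99 and 1.28. Zmat3 thus missed the threshold in the main edgeR fit, and of the alternatives run it passed with DESeq2 and without WT replicate 1 only.

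Trp53 itself read 197 and 201 CPM in WT forelimbs and 269 and 267 CPM in Prx-cKO forelimbs. The groups were tight and did not overlap. The log2 fold change was 0.43 (SE 0.14, 95% interval 0.08 to 0.78), with an edgeR unadjusted p of 0.0242 and an adjusted p of 0.450. Its fold, 1.35, was smaller than that of Zmat3. The adjusted p for Trp53 was at least 0.261 under every alternative run.

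**Figure D1:**
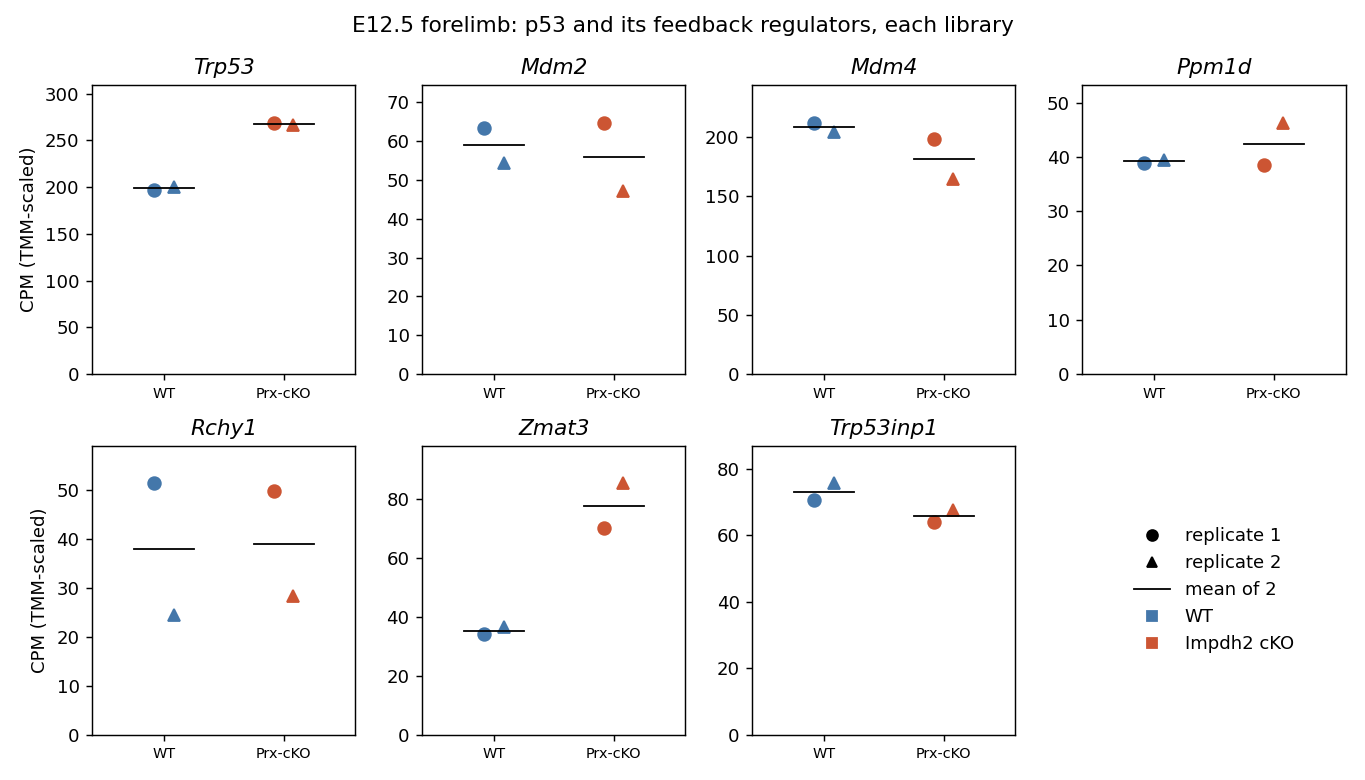
Normalised level (CPM, linear axis from 0, scaled separately for each gene) of the 7 genes in each forelimb library. Circles are replicate 1, triangles replicate 2 and lines the mean of 2 libraries. Zmat3 sits at 70.1 and 85.3 CPM in Prx-cKO against 34.2 and 36.5 CPM in WT, while the Rchy1 points separate by replicate number and not by genotype.

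Among the genes that restrain p53, Mdm2 read 63.4 and 54.5 CPM in WT and 64.8 and 47.2 CPM in Prx-cKO. The Prx-cKO values lay on either side of both WT values. The log2 fold change was -0.07 (SE 0.21, 95% interval -0.61 to 0.46; edgeR adjusted p 0.922), an interval that leaves room for a change of either sign. Mdm4 read 212 and 205 CPM in WT and 199 and 165 CPM in Prx-cKO. Both Prx-cKO libraries were lower, and 1 of them by a small margin (log2 fold change -0.20, SE 0.16, edgeR adjusted p 0.700). Without Prx-cKO replicate 2 the Mdm4 value was -0.065, and without Prx-cKO replicate 1 it was -0.33. The phosphatase gene Ppm1d read 38.9 and 39.4 CPM in WT and 38.4 and 46.3 CPM in Prx-cKO. Its groups overlapped, and only Prx-cKO replicate 2 stood above the others (log2 fold change 0.11, SE 0.17, edgeR adjusted p 0.854).

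The ligase gene Rchy1 read 51.4 and 24.5 CPM in WT and 49.9 and 28.3 CPM in Prx-cKO. Its level followed the replicate number in both genotypes, with each replicate 1 at least 1.76 times each replicate 2. This left a wide interval for the genotype difference (log2 fold change 0.04, SE 0.44, 95% interval -1.07 to 1.16). A pattern of this kind, with both replicate 1 libraries at least 1.5 times both replicate 2 libraries, was found for 1149 of 19987 genes (5.75%), and the reverse for 473 (2.37%). Thap6, which overlaps Rchy1, read 12.7 and 13.5 CPM in WT and 6.02 and 10.8 CPM in Prx-cKO, with replicate 1 the lower of each pair. The part of counting or sample handling in the Rchy1 values was not tested.

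Trp53inp1, the cofactor that promotes p53 phosphorylation, read 70.6 and 75.7 CPM in WT and 63.9 and 67.7 CPM in Prx-cKO. All 4 values lay close together, with the Prx-cKO pair lower. The log2 fold change was -0.15 (SE 0.15, 95% interval -0.52 to 0.22; edgeR adjusted p 0.754). Zmat3 and Trp53inp1 thus had Prx-cKO means on opposite sides of WT.

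The composition of the forelimb libraries moved with genotype as well. The summed level of 10 chondrogenic markers was 942 and 1070 CPM in WT and 424 and 362 CPM in Prx-cKO. One of them, Snorc, was at 0 in both Prx-cKO libraries. It did not pass the filter on low counts in the forelimb, so its 0 is not read as a genotype difference. The summed level of 11 limb mesenchyme markers was 2144 and 2428 CPM in WT and 1474 and 1562 CPM in Prx-cKO, none at 0. Summed levels were higher in Prx-cKO for 9 skeletal muscle markers (340 and 330 against 956 and 455 CPM), 10 myeloid markers (50.03 and 48.3 against 104 and 94.9 CPM), 8 endothelial markers (155 and 159 against 213 and 217 CPM) and 12 markers of dividing cells (2819 and 3299 against 3392 and 3831 CPM). The part of these shifts in the Trp53 and Zmat3 values was not tested. In bulk tissue, fewer cells of a type and less RNA per cell cannot be told apart.

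The rest of the p53 pathway in the forelimb was described with lists written from general knowledge. They were written with earlier results of these data known, so they are not independent of the data. Of 36 p53 targets outside the feedback genes, 0 passed the adjusted threshold (edgeR). At an unadjusted p under 0.05, 19 were higher and 0 lower, against 5.87% and 4.61% of all genes. The median log2 fold change of the 36 targets was 0.63, beside -0.03 over all genes tested. Ccng1, which encodes cyclin G1, read 38.7 and 37.5 CPM in WT and 191 and 186 CPM in Prx-cKO, and the cell cycle inhibitor gene Cdkn1a read 24.8 and 25.9 CPM against 107 and 114 CPM. The 7 members, Trp53 included, had a median of 0.04. Zmat3 (1.14) was above the median of the listed targets and Mdm2 (-0.07) below it.

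**Figure D2:**
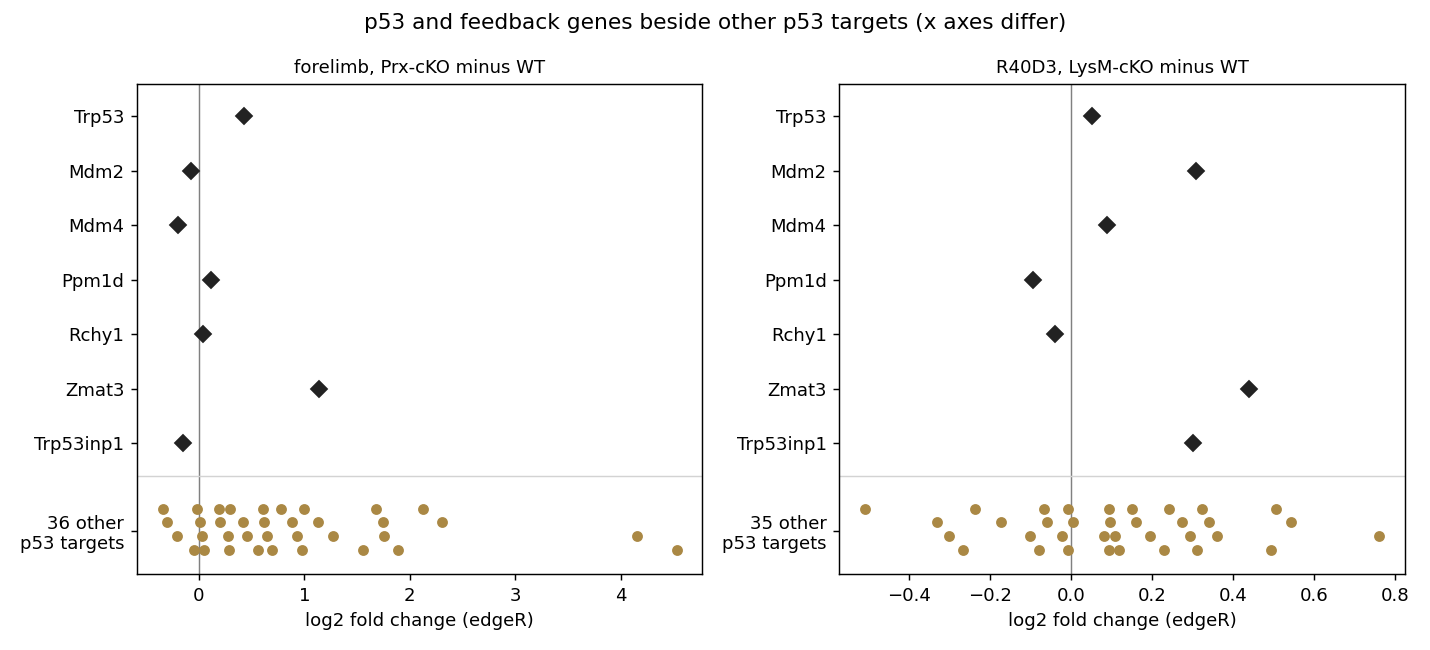
Fitted log2 fold change (x axis, edgeR, scales differ between panels) of the 7 genes (diamonds, one row each) and of the other listed p53 targets (circles, spread vertically for visibility) in the forelimb (left) and in R40D3 (right). In the forelimb, Zmat3 at 1.14 and Trp53 at 0.43 are to the right of the other 5 members, and the targets have a median of 0.63.

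Upstream of p53, 17 of 18 listed kinases and signal carriers were tested in the forelimb, and 0 passed the adjusted threshold. Without adjustment, 0 were higher and 1 was lower at a p under 0.05, against 5.87% and 4.61% of all genes. The lower one was Prkdc, the catalytic subunit of DNA-dependent protein kinase. It read 35.5 and 47.2 CPM in WT and 24.8 and 25.8 CPM in Prx-cKO. Of 14 other ligases and deubiquitinases of p53, and of 18 cofactors and modifying enzymes, 0 passed even an unadjusted p under 0.05 (edgeR). The p53 relatives Trp63 and Trp73 had overlapping groups, Trp63 at 42.5 and 62.4 CPM in WT and 58.0 and 51.5 CPM in Prx-cKO.

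In R40D3 cultures, Zmat3, Mdm2, Trp53inp1 and Mdm4 were higher in both LysM-cKO libraries than in either WT library. That is 4 of 7 members, with 0 lower without overlap, where 19.7% of all genes were higher and 18.9% lower. At an unadjusted p under 0.05, 3 members were higher and 0 lower, against 4% and 3.47% of 14030 genes. No member passed the adjusted threshold in the edgeR fit, which called 2 genes (0.0143%), and DESeq2 called 23 genes and 0 members.

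Zmat3 read 66.2 and 72.7 CPM in R40D3 WT and 96.3 and 92.1 CPM in R40D3 LysM-cKO. The groups were well apart (log2 fold change 0.44, SE 0.09, edgeR unadjusted p 0.00174, adjusted p 0.648). With the replicate number as a block, Zmat3 had an edgeR adjusted p of 0.0705. Mdm2 read 92.0 and 101 CPM in WT and 109 and 130 CPM in LysM-cKO. The highest WT and the lowest LysM-cKO value were close (log2 fold change 0.31, SE 0.12, edgeR unadjusted p 0.0334, adjusted p 0.648). Without LysM-cKO replicate 2 the Mdm2 value was 0.16, and without LysM-cKO replicate 1 it was 0.45. Trp53inp1 read 118 and 123 CPM in WT and 149 CPM in each LysM-cKO library. Replicates agreed closely and the groups were apart (log2 fold change 0.30, SE 0.10, edgeR unadjusted p 0.0204, adjusted p 0.648).

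Trp53 RNA in R40D3 read 48.1 and 51.7 CPM in WT and 53.2 and 50.3 CPM in LysM-cKO. The groups overlapped, with a 95% interval of -0.21 to 0.31 on the log2 scale. Mdm4 read 56.6 and 59.7 CPM in WT and 62.7 and 61.1 CPM in LysM-cKO (log2 fold change 0.09, SE 0.08). The gap between the groups was smaller than the spread within either. Ppm1d and Rchy1 had overlapping groups, with log2 fold changes of -0.09 (SE 0.14) and -0.04 (SE 0.09).

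In R0D3 cultures, Mdm2, Mdm4, Zmat3 and Trp53inp1 were again the members higher without overlap in LysM-cKO. That is 4 of 7 members higher, and 1 lower, where 17.5% of all genes were higher and 14.8% lower. At an unadjusted p under 0.05, 2 members were higher and 0 lower, against 3.02% and 1.4% of all genes. The edgeR fit called 2 genes (0.0143%) and 0 members, and DESeq2 called 7 genes and 0 members.

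Zmat3 read 86.2 and 95.9 CPM in R0D3 WT and 109 and 115 CPM in R0D3 LysM-cKO. Both LysM-cKO values were above both WT values (log2 fold change 0.30, SE 0.09, edgeR unadjusted p 0.0132, adjusted p 0.997). Mdm4 read 49.9 and 46.0 CPM in WT and 58.2 and 58.6 CPM in LysM-cKO. This inhibitor gene had tight replicates and separate groups (log2 fold change 0.28, SE 0.08, edgeR unadjusted p 0.0107, adjusted p 0.997). Mdm2 read 107 and 115 CPM in WT and 122 and 141 CPM in LysM-cKO, and Trp53inp1 read 117 and 121 CPM against 150 and 124 CPM. For Trp53inp1 the difference rested on LysM-cKO replicate 1, with a log2 fold change of 0.20 (SE 0.10) against 0.033 without it. Trp53 read 43.2 and 52.3 CPM in WT and 42.0 and 42.7 CPM in LysM-cKO, lower in both LysM-cKO libraries but close to WT replicate 1. Ppm1d and Rchy1 differed between genotypes by log2 fold changes of 0.05 (SE 0.14) and -0.05 (SE 0.09).

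**Figure D3:**
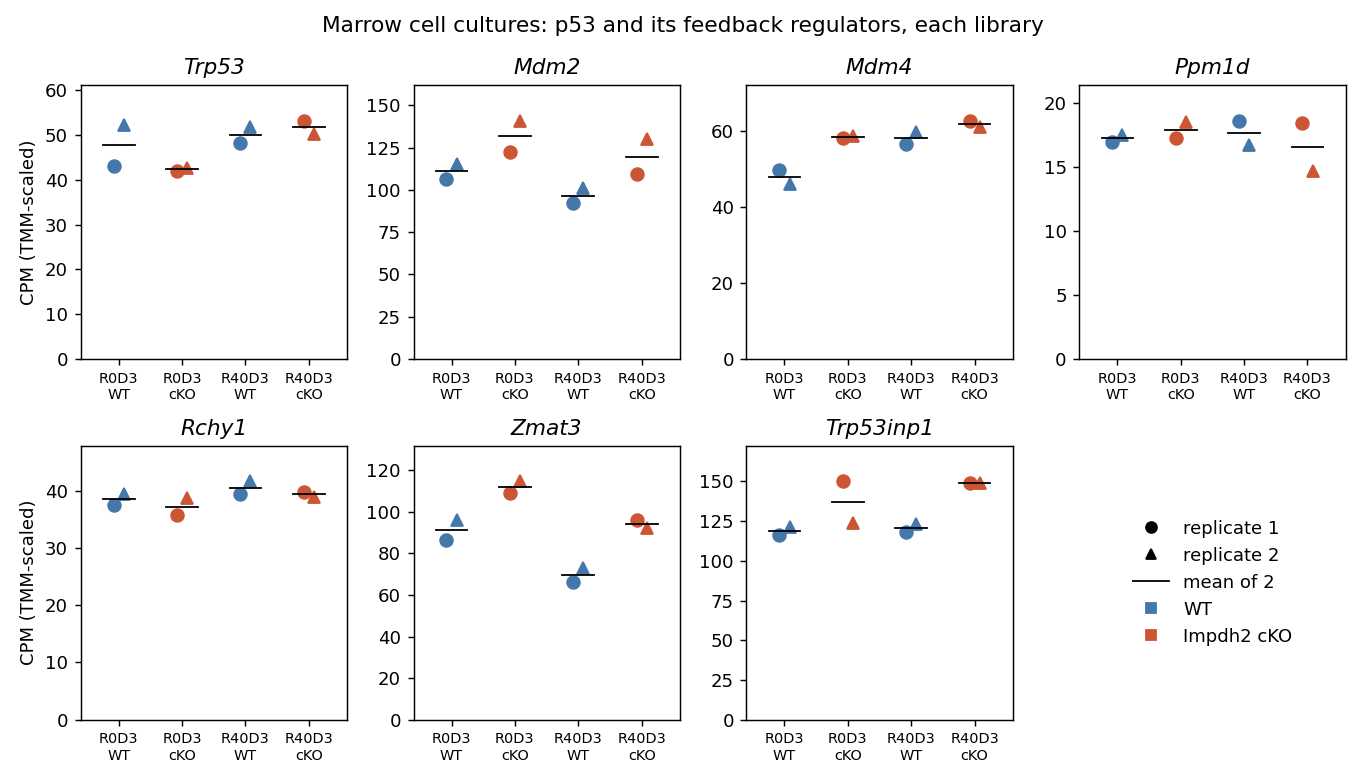
Normalised level (CPM, linear axis from 0, scaled separately for each gene) of the 7 genes in each of the 8 culture libraries, by title and genotype. Circles are replicate 1, triangles replicate 2 and lines the mean of 2 libraries. Zmat3 is at 66.2 and 72.7 CPM in R40D3 WT, below every other culture group.

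The genotype difference in R40D3 was compared with that in R0D3 by an interaction term. For Zmat3 the difference of the 2 effects was 0.14 (SE 0.13, 95% interval -0.16 to 0.45), and for Mdm4 it was -0.20 (SE 0.12, 95% interval -0.47 to 0.08). Of the 7 members 0 passed an unadjusted p under 0.05 in the edgeR interaction test, where 1.77% of all genes did and 0 genes passed after adjustment. DESeq2 called 0 genes. These intervals do not show that the effects were equal.

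The culture libraries also differed in makeup. The summed level of 12 markers of dividing cells was 288 and 270 CPM in R40D3 WT and 306 and 517 CPM in R40D3 LysM-cKO, and 397 and 542 CPM against 508 and 1068 CPM in R0D3. The summed level of 11 osteoclast markers was 26473 and 38999 CPM in R40D3 WT and 13272 and 24986 CPM in R40D3 LysM-cKO. Both LysM-cKO replicate 2 libraries were low in 8 stromal fibroblast markers, at 432 and 508 CPM, where the other 6 culture libraries had 1215 to 1616 CPM. The part of these differences in the members' values was not tested. Of 35 tested p53 targets outside the feedback genes, 8 were higher and 0 lower at an unadjusted p under 0.05 in R40D3 LysM-cKO, where 4% of all genes were higher and 3.47% lower. In R0D3, 2 were higher and 0 lower, where 3.02% of all genes were higher and 1.4% lower, so that count is near the background. None of these targets passed the adjusted threshold in either edgeR comparison.

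Between R40D3 and R0D3, Zmat3 was the only member that passed the adjusted threshold in the edgeR fits of the 5 pairwise comparisons. It fell in WT cultures, from 86.2 and 95.9 CPM in R0D3 to 66.2 and 72.7 CPM in R40D3. The groups did not overlap, and both numbered pairs moved by a similar amount. The log2 fold change was -0.39 (SE 0.09, edgeR adjusted p 0.0272), a mean level 23.7% lower. With the replicate number as a block the edgeR adjusted p was 0.0057, and DESeq2 gave 0.016. Leaving out any 1 of the 4 WT libraries ended the call, with edgeR adjusted p between 0.0667 and 0.179. Of all genes, 16.9% passed in this comparison, 11.4% higher and 5.52% lower in R40D3, so a call for 1 of 7 members is near the background.

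In WT cultures Mdm4 was higher in R40D3, at 56.6 and 59.7 CPM against 49.9 and 46.0 CPM in R0D3. The groups were apart, and the log2 fold change of 0.28 (SE 0.08) had an edgeR adjusted p of 0.0624, or 0.0268 with the replicate block. The other members had log2 fold changes between -0.20 for Mdm2 and 0.07 for Rchy1, with 95% intervals that included 0 in the main fit. With the replicate block, Mdm2 had an edgeR unadjusted p of 0.0174 and an adjusted p of 0.058. In the main fit, 1 member was higher and 1 lower at an unadjusted p under 0.05, against 17.9% and 12.4% of all genes. Without overlap, 1 member was higher and 2 were lower, where 32.9% of all genes were higher and 29.2% lower.

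In LysM-cKO cultures 0 members passed the adjusted threshold, where 10.1% of all genes did (edgeR; 6.99% higher and 3.15% lower), and 0 were called by DESeq2. At an unadjusted p under 0.05, 1 was higher and 1 lower, against 14.4% and 9.56% of all genes. Trp53 was higher in R40D3, at 53.2 and 50.3 CPM against 42.0 and 42.7 CPM in R0D3 (log2 fold change 0.29, SE 0.11, edgeR adjusted p 0.161). Zmat3 was lower in R40D3, at 96.3 and 92.1 CPM against 109 and 115 CPM (log2 fold change -0.25, SE 0.09, edgeR adjusted p 0.149). Neither pair of groups overlapped. Without overlap, 3 members were higher and 1 was lower, where 27.3% of all genes were higher and 22.5% lower. The R40D3 libraries in these comparisons are also those of the genotype comparison, so the comparisons share samples.

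**Figure D4:**
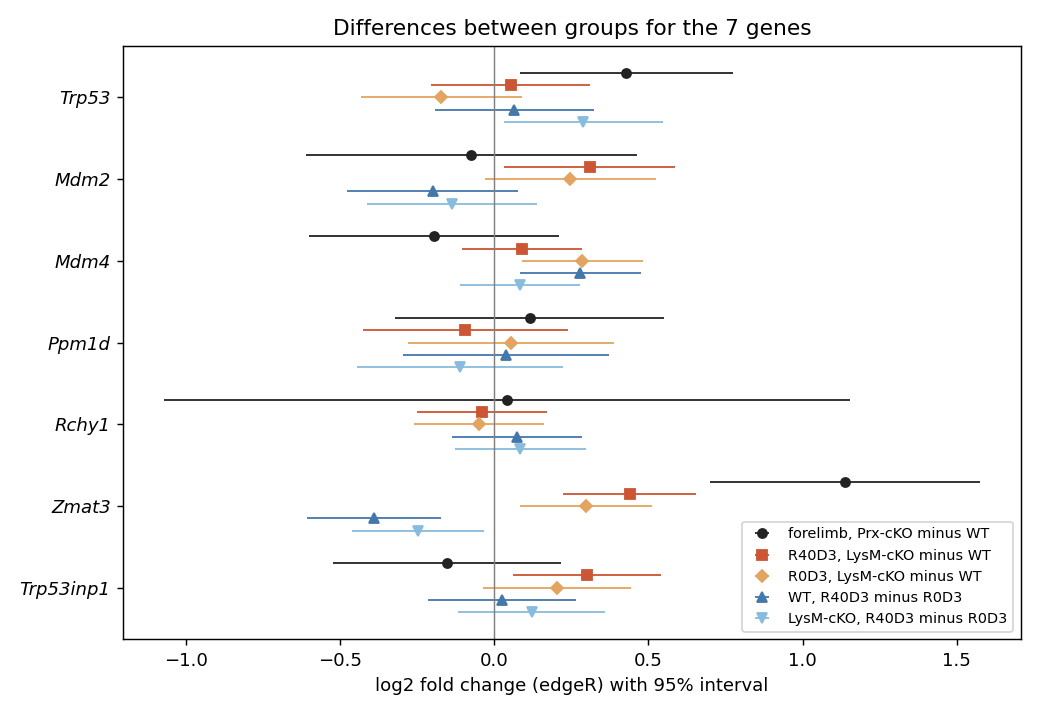
Fitted log2 fold change of each gene in each comparison, with 95% intervals from the edgeR quasi-likelihood fits and a line at 0. The Zmat3 interval in the forelimb runs from 0.70 to 1.58, and the Rchy1 interval there, from -1.07 to 1.16, is the widest shown.

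The genotype differences of forelimb and cultures were then compared in 1 fit over all 12 libraries and 18304 genes. The 2 settings differ in tissue, Cre driver and the authors' tables, which cannot be told apart. The Zmat3 difference was larger in the forelimb than in R40D3 by 0.65 (SE 0.18, 95% interval 0.25 to 1.06) on the log2 scale, with an edgeR unadjusted p of 0.00531 and an adjusted p of 0.231. Against R0D3 it was larger by 0.82 (SE 0.18, 95% interval 0.41 to 1.23), with an edgeR unadjusted p of 0.00127 and an adjusted p of 0.181. DESeq2 gave adjusted p of 0.0172 and 0.0011 for these, and with the replicate block edgeR gave 0.052 and 0.0451.

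The Trp53 difference was larger in the forelimb than in R0D3 by 0.58 (SE 0.16, edgeR adjusted p 0.293, DESeq2 adjusted p 0.0152). Against R40D3 it was larger by 0.33 (SE 0.16, edgeR adjusted p 0.455). Trp53inp1 went the other way, with a forelimb difference minus R40D3 difference of -0.50 (SE 0.17, edgeR unadjusted p 0.0156, adjusted p 0.289). For Mdm4 the forelimb difference minus the R0D3 difference was likewise -0.50 (SE 0.16, edgeR unadjusted p 0.0107, adjusted p 0.342). No member passed the adjusted threshold in these edgeR tests, which called 9 genes (0.0492%) against R40D3 and 5 (0.0273%) against R0D3. Without adjustment, 2 members passed p under 0.05 against R40D3 and 3 against R0D3, beside 12% and 10.3% of all genes.

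Levels were compared between members per kilobase of exonic length, which for genes with long, rarely used exons gives a low value. Mdm4 (14.8 kb) and Zmat3 (11.44 kb) are the longest of the members, and Trp53 has 4.04 kb. Before division by length, Mdm4 had a higher mean in WT forelimbs (209 CPM) than Trp53 (199 CPM). In WT forelimbs Trp53 had the highest level, 49.2 ± 0.598 CPM per kb (SD, n = 2), followed by Mdm4 at 14.1 ± 0.361 CPM per kb. Ppm1d, Mdm2, Trp53inp1 and Rchy1 followed, with means from 12.3 to 10.1 CPM per kb, and each overlapped the next in this order. Zmat3 was lowest, at 3.09 ± 0.144 CPM per kb, and it was lowest in Prx-cKO too, at 6.79 ± 0.946 CPM per kb. In WT R40D3 cultures the order was another one. Mdm2 and Trp53inp1 led at 19.0 ± 1.27 and 18.7 ± 0.543 CPM per kb and overlapped. Trp53, at 12.3 ± 0.632 CPM per kb, stood above Rchy1 at 10.7 ± 0.415 CPM per kb without overlap, and Mdm4 was lowest at 3.93 ± 0.148 CPM per kb. Mdm2 led and Mdm4 was lowest in all 4 culture groups.

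The level of Mdm2 relative to Trp53 therefore differed between the 2 settings. Per kilobase, the ratio of Mdm2 to Trp53 was 0.256 and 0.216 in WT forelimbs and 0.192 and 0.141 in Prx-cKO forelimbs. It was lower in both Prx-cKO libraries than in either WT library. In the cultures the ratio was 1.52 and 1.56 in R40D3 WT, 1.63 and 2.06 in R40D3 LysM-cKO, 1.96 and 1.76 in R0D3 WT and 2.32 and 2.63 in R0D3 LysM-cKO. All 8 culture ratios were above all 4 forelimb ratios. Within each culture title the LysM-cKO ratios were above the WT ratios. These ratios are given as a description and were not tested. The ratio is taken within each library, and the forelimb and culture tables were otherwise normalised separately.

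The patterns of the members across the libraries were compared with those of other genes by the root mean square difference of log2 CPM, each centred on its own tissue mean, over 12 libraries and 8839 genes. The nearest gene to Zmat3 was Bax, which encodes a pro-apoptotic BCL2 family protein and is itself a listed p53 target, at a distance of 0.15, beside a median of 0.43 over the compared genes. Nme4 and Arhgap45 followed at 0.15 and 0.16. For Trp53 the nearest were Blvra (0.07), Utp18 (0.08) and Aldh7a1 (0.08), beside a median of 0.25. For Mdm2 they were Nqo2 (0.09), Ttc8 (0.11) and Camk2d (0.11), and for Mdm4 Sike1, Rlim and Tug1 at 0.07 each. The nearest to Rchy1 were Pofut2, Cd68 and Ccdc115, to Ppm1d Tubgcp6, Dtd2 and Capzb, and to Trp53inp1 Ccnt1, Ing3 and Ccdc47. None of the 3 nearest genes of any member was another member. The members' own root mean square departure from the tissue mean was 0.39 for Zmat3, 0.28 for Rchy1 and 0.16 for Trp53. For Mdm2, Mdm4, Trp53inp1 and Ppm1d it was 0.19, 0.14, 0.13 and 0.11, so genes that hardly move also lie near these.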

How the data were processed

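The authors deposited raw counts per Ensembl gene, as whole numbers: the 4 forelimb libraries share a table, and the cultures have one for each replicate number. Per the submitters' processing notes, FastQC 0.11.2, Trimmomatic 0.36, HISAT2 2.1.0, DESeq2 1.12.4 and GRCm38 were used. The counting tool, annotation and use of strand are not given in the sources used here. Per the labels' protocols, TRIzol-extracted RNA went into a kit for mRNA libraries. The deposited counts were tested with the edgeR 4.0.16 quasi-likelihood test (legacy = FALSE) after filterByExpr and TMM scaling, two-sided, with Benjamini-Hochberg adjustment over all genes tested. A call is an adjusted p under 0.05. Separate models held the 4 forelimb and the 8 culture libraries, and a joint model held all 12 libraries over shared identifiers for differences between effects. The SE of a log2 fold change was its size over the root of the F statistic. CPM use TMM-scaled library sizes. Exonic lengths came from GENCODE M21, and near-identical transcripts were sought with BLAST 2.17.0. Alternatives were DESeq2 1.42.0, other scalings, no filter, legacy = TRUE, a replicate block and leaving out each library.

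The members and gene lists were chosen with earlier results of these data known. Named were all 7 members in every comparison and, from each of 5 pathway lists, up to 4 genes with the smallest p. Another 3 genes were named for each member by the smallest root mean square difference, among genes averaging 5 CPM or more. Same-numbered culture libraries deviated together in all 6 pairs of groups (r from 0.343 to 0.609 across genes). The main fits left this pairing out, and it entered only the alternative with a replicate block. For the forelimb numbers r was 0.261, from 1 pair of groups. The fitting code was tested on simulated counts.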

Additional observations from a re-analysis of the deposited data

How the results depend on the processing

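Over 672 alternative values for the members, 626 kept their direction and side of the threshold, 35 changed sign, 7 gained the call and 4 lost it. The sign changes concerned values whose 95% intervals included 0. Scaling by library size alone turned the log2 fold change of Rchy1 to -0.045 in the forelimb, to -0.046 in the forelimb against the R40D3 effect and to -0.011 against the R0D3 effect, where Ppm1d turned to -0.056. Without a filter on low counts, R40D3 minus R0D3 in WT was -0.0053 for Ppm1d and -0.017 for Trp53inp1.

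Leaving out 1 library at a time gave these ranges where the sign changed. In the forelimb they were -0.31 to 0.14 for Mdm2, -0.024 to 0.25 for Ppm1d and -0.41 to 0.63 for Rchy1. For genotype in R40D3 they were -0.0054 to 0.12 for Trp53, -0.25 to 0.040 for Ppm1d and -0.084 to 0.012 for Rchy1, and in R0D3 -0.0025 to 0.080 for Ppm1d. For R40D3 minus R0D3 in WT they were -0.067 to 0.21 for Trp53, -0.069 to 0.068 for Ppm1d, -0.0090 to 0.11 for Rchy1 and -0.048 to 0.053 for Trp53inp1. In LysM-cKO they were -0.29 to 0.0026 for Ppm1d and -0.0074 to 0.26 for Trp53inp1. For the interaction they were -0.072 to 0.22 for Mdm2, -0.025 to 0.075 for Rchy1 and -0.033 to 0.27 for Trp53inp1. For the forelimb effect minus the R40D3 effect, Rchy1 ran from -0.40 to 0.64, and minus the R0D3 effect Rchy1 ran from -0.37 to 0.67 and Ppm1d from -0.11 to 0.18. Other uncalled values moved by over 1.5 times without a change of sign, among them Mdm4 (-0.33 to -0.065) and Trp53inp1 (-0.24 to -0.094) in the forelimb, Mdm2 (0.16 to 0.45) in R40D3, and Mdm2 (0.14 to 0.32) and Trp53 (-0.30 to -0.029) in R0D3. Where an arm was left with 1 library, that library was assumed to vary like the other groups.

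Counts of called genes moved more than the members' values. In the forelimb the count was 0 in the main fit, 390 with DESeq2 (1 member) and 0 to 603 leaving out 1 library (0 to 1 members, with 603 and Zmat3 without WT replicate 1). The genotype count of 2 in R40D3 became 23 with DESeq2, 0 with library size alone, 0 from the 4 compared libraries and 0 leaving out any 1 library. In R0D3 the count of 2 became 7 with DESeq2, 0 from the 4 compared libraries and 0 leaving out any 1 library. R40D3 minus R0D3 gave 689 to 1699 genes in WT (0 members) and 399 to 1317 in LysM-cKO leaving out 1 library, where the full fits gave 2367 and 1422, and 533 in LysM-cKO from the 4 compared libraries. The forelimb effect against R40D3 (9 genes) gave 597 with DESeq2 (1 member) and 1 to 264 leaving out 1 library. Against R0D3 (5 genes) it gave 442 with DESeq2 (2 members), 10 with median-ratio size factors, 17 with legacy = TRUE and 1 to 216 leaving out 1 library. The DESeq2 fits held 19987 genes in the forelimb and 18304 in the joint comparisons. The cause of the differences between these counts was not tested.

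With the replicate number as a block, 1 of 19987 genes was called in the forelimb. For genotype in R40D3 and R0D3, 30 and 3 of 14030 genes were called. For R40D3 minus R0D3, 3977 of 14030 genes were called in WT and 2983 in LysM-cKO. The 3977 held 2 of the 7 members, Zmat3 and Mdm4, a share near that of all genes. The joint fit gave 428 and 156 of 18304 genes (1 member, Zmat3, in the second). The block changed no other call among the members. For genotype in R40D3, it lowered the edgeR unadjusted p of Zmat3 from 0.00174 to 0.000345 (adjusted p 0.0705). That of Mdm2 went from 0.0334 to 0.00176 (adjusted p 0.107). In R0D3 the edgeR unadjusted p of Zmat3 went from 0.0132 to 0.00395 (adjusted p 0.264). That of Mdm2 went from 0.0736 to 0.00637 (adjusted p 0.28). In the forelimb, where libraries share only a number, the block reduced the SE of Rchy1 from 0.44 to 0.16. The number of libraries, 2 per group, limits every comparison.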

Other observations

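Other p53 pathway genes were also compared between R40D3 and R0D3. In WT cultures, of 18 kinases and signal carriers upstream of p53, 3 rose and 0 fell at an adjusted p under 0.05 (edgeR). Of all genes 16.9% passed, 11.4% higher and 5.52% lower. The count over both directions is thus at the background share, while the share that rose is above 11.4%. One of the 3 was Dyrk2, a kinase that phosphorylates p53, at 132 and 144 CPM in R40D3 against 76.6 and 71.9 CPM in R0D3. Of 35 tested p53 targets outside the feedback genes, 5 rose and 7 fell, beside the same 11.4% and 5.52% of all genes. The share of targets that fell is above the background, as is the share over both directions, and the share that rose is near it. Plk2, which encodes a polo-like kinase, fell from 181 and 151 CPM to 74.2 and 65.4 CPM, and the stress-response gene Sesn1 fell from 264 and 273 CPM to 192 and 189 CPM. In LysM-cKO cultures 3 of 18 upstream genes rose and 0 fell, and 1 of 35 targets rose and 2 fell (edgeR). Of all genes 10.1% passed, 6.99% higher and 3.15% lower. The share of targets called in either direction is not above 10.1%. By direction, the share that fell is above 3.15% and the share that rose is below 6.99%, on counts of 2 and 1. The share of upstream genes that rose is above both 6.99% and 10.1%, on a count of 3.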
